A study of Mus musculus with 2 samples.

Results

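The regulators that set and keep the identity of B lymphocytes were followed in RNA from mouse spleen: Pax5, Ebf1, Tcf3, Pou2f2, Pou2af1, Spib, Bcl6, Bach2, Foxp1 and Mef2c. They were chosen by name, for their known roles, and are 10 of the 43346 genes with an Ensembl identifier in the deposited tables. All 10 were found by symbol. The RNA was polyadenylated RNA from the spleen of a male C57BL/6J mouse aged 10 weeks, with no treatment and no altered allele named in the labels. The labels name 2 libraries as technical replicates, numbered 1 and 2, from the same biological replicate. They date the second to 2015 and place it outside a publication of 2014. The only comparison the design allows is therefore between these 2 libraries, replicate 2 over replicate 1, and it shows how alike the levels of these regulators are when the same organ is measured again. The tissue is whole spleen, so every value is a sum over all its cells, and fewer cells of a type cannot be told apart from less RNA per cell.

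B cells arise when TCF3 and EBF1 switch on early B lineage genes and PAX5 then holds the cells to that fate. In mature B cells of the spleen, POU2F2 with its coactivator POU2AF1 reads octamer sites, among them those of the immunoglobulin genes, and SPIB, an ETS factor related to PU.1, acts in B cell receptor signalling. BCL6 is the repressor that drives the germinal centre, BACH2 holds back plasma cell fate, FOXP1 acts from the pro-B cell stage on and MEF2C is needed for the response and survival of B cells after receptor signalling.

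The depth was 27528824 expected counts for replicate 1 but 3806381 for replicate 2, 7.23 times fewer. A ratio between the libraries is given on the log2 scale after TMM scaling, which assumes that most genes are alike, with a 95% interval that covers counting error only. A gene was called higher or lower in replicate 2 when this whole interval lay beyond 1.5-fold. There was 1 library on each side, so no ratio has a replicate check or a p-value. The libraries stood far apart: 60.6% of the 12467 tested genes were called, 28% higher and 32.6% lower. With total counts the split was 14.6% and 58.5%, and in TPM, past 1.5-fold with a pseudocount of 1, it was 8.4% and 80.8%. Scaling by total counts in place of TMM lowers every log2 ratio by 1.26, so a call is also given as holding under every scaling when TMM, DESeq2 and total-count scaling made the same call and TPM (a level per length that sums to 1000000 over all genes of a library) moved the same way. By that stricter rule 11.8% of the tested genes were higher and 30.5% lower. B cell transcripts were present in both libraries, since all 10 B cell markers reached 1 TPM in each. Their summed level was 4284 TPM in the former and 1284 TPM in the latter. For the 8 erythroid markers, globins among them, the sums were 43065 TPM and 442738 TPM. These sums are in TPM, in which the median log2 ratio over all tested genes was -2.10 with a pseudocount of 1. By TMM 3 of the 10 B cell markers were called higher and 7 lower, so the sums alone do not show a difference in B cell content. The part of these differences in marker levels in the results that follow was not tested.

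All 10 regulators were tested, and they split between the directions. Pax5, Ebf1, Tcf3 and Foxp1 were called higher in replicate 2 by TMM, Spib, Pou2af1, Bach2, Bcl6 and Mef2c were called lower, and Pou2f2 was not called. With total counts 1 was called higher and 5 lower, and in TPM 0 higher and 8 lower. By the stricter rule 1 of 10 was higher (Pax5) and 4 of 10 were lower (Spib, Pou2af1, Bach2 and Mef2c). The count of 9 called in either direction stands beside a background of 60.6%, and with 10 genes it says little about these regulators as a group. Their median log2 ratio was -0.27, equal to the -0.27 of all tested genes. In TPM, with a pseudocount of 1, the medians were -2.04 and -2.10. The spread among the regulators, an SD of 2.19 on the log2 scale, was close to the SD of 2.29 over all tested genes. The 10 ratios covered a range of 7.02 on the log2 scale, or 129.9-fold between the ratios of Pax5 and Bach2.

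In replicate 1 the coactivator and the ETS factor led. Pou2af1 stood at 246.5 TPM and Spib at 176.8 TPM, ahead of Mef2c at 93.1 TPM and Foxp1 at 92.2 TPM. Pax5 followed at 56.4 TPM, Bach2 at 48.7 TPM, Ebf1 at 34.9 TPM, Pou2f2 at 26.7 TPM, Bcl6 at 23.9 TPM and Tcf3 at 17.0 TPM. Neighbours in this order were separated by their deposited TPM intervals, except Mef2c and Foxp1, whose intervals overlapped. These intervals are the authors', and their level is not given in the file headers. They surround a posterior mean, so the TPM itself can lie outside, as it did for Spib, Pou2af1 and Mef2c in replicate 1 and Bach2 in replicate 2.

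In replicate 2 Foxp1 led with 115.4 TPM and Pax5 came next with 80.1 TPM. Ebf1 was at 20.8 TPM, Pou2f2 at 12.4 TPM, Spib at 11.5 TPM, Tcf3 at 9.90 TPM, Pou2af1 at 7.70 TPM, Mef2c at 6.92 TPM, Bcl6 at 2.06 TPM and Bach2 at 0.45 TPM. Here the intervals of Pou2f2 and Spib, of Spib and Tcf3, of Pou2af1 and Mef2c, and of Bcl6 and Bach2 overlapped. The 2 orders were nearly unrelated, with a Spearman rho of 0.079 over the 10 genes, given as a description. Pou2af1 and Spib together made up 51.9% of the summed TPM of the 10 genes in replicate 1 and 7.19% in replicate 2. Foxp1 and Pax5 made up 18.2% and 73.2%. The whole set summed to 816.1 TPM and 267.2 TPM, and the gap between its highest and lowest member widened from 14.5-fold to 256.4-fold. The latter figure rests on the Bach2 TPM of 0.45, which comes from 22 counts and lies below its deposited interval (0.82 to 5.01 TPM).

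**Figure D1:**
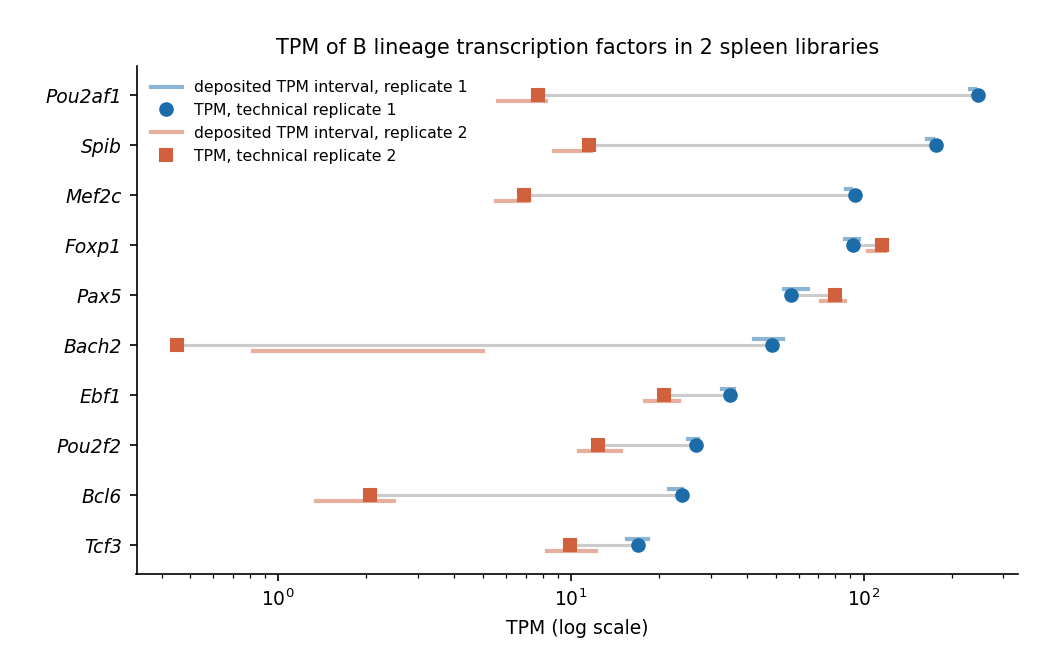
TPM of each of the 10 regulators in replicate 1 and replicate 2 on a log axis, with the interval deposited by the authors as a bar beside each point. Pax5 and Foxp1 lie higher in replicate 2 and the other 8 lie lower, from Ebf1 at 34.9 and 20.8 TPM to Bach2 at 48.7 and 0.45 TPM.

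Pax5, Ebf1 and Tcf3 are the factors that found the B lineage. Pax5 (chr4:44524757-44710487, minus strand, GRCm38) had 1219 counts in replicate 1 and 680 in replicate 2, although replicate 2 was much the shallower library. Scaled to 1000000 counts per library (CPM), this is 44.3 and 178.7 CPM. The log2 ratio was 3.27 (3.14 to 3.41), higher than that of 92.8% of tested genes, and it stayed at 2.01 under total counts. In TPM the difference was smaller, 1.42-fold, while the mean transcript length estimated by the authors was 1320 bases and 1581 bases. Pax5-201 led in both libraries, with 53.3% of the gene's TPM in replicate 1 and 92.4% in replicate 2, and the shorter Pax5-213 went from 37.9% (329.6 counts) to 0%. The deposited length of Pax5-201, 1616 bases, is not that of the GENCODE M21 model, which has 6749 bases of 3′ UTR, so its structure is not compared.

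Ebf1 (chr11:44617317-45008091, plus strand) had 3716 and 481 counts, which are 135.0 and 126.4 CPM. Its log2 ratio was 1.17 (1.03 to 1.30) by TMM, but -0.10 by total counts and -0.72 in TPM, so its direction rests on the scaling. The leading transcript was another in each library. Ebf1-201, of 5981 bases, held 91.3% of Ebf1 TPM in replicate 1 (3528 counts) and 25.6% in replicate 2 (182.9 counts). Ebf1-202, of 3422 bases, held 5.12% (110.4 counts) and 74.4% (298.6 counts). The annotation gives both the same start, but Ebf1-201 has 2562 more bases of 3′ UTR (chr11:45005530-45008091). Within the coding part the transcripts differ only by 3 bases present in Ebf1-202 (chr11:44907904-44907906), printed here in capitals because they are the only coding difference between the 2 leading transcripts. The lines give the spliced sequence, 5′ to 3′, from GENCODE M21.
Ebf1-202: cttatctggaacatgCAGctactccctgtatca
Ebf1-201: cttatctggaacatgctactccctgtatca

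Tcf3 (chr10:80409514-80433647, minus strand) encodes the E proteins E12 and E47. It had 827 and 143 counts, or 30.0 and 37.6 CPM, and a log2 ratio of 1.58 (1.32 to 1.84) by TMM, 0.32 by total counts and -0.72 in TPM. Tcf3 is the lowest of the 10 in replicate 1, and its transcripts did not overlap at all between the libraries as the authors' estimates stand. Replicate 1 was assigned to Tcf3-209 (61.3%, 549.0 counts), Tcf3-208 (23.6%) and the retained-intron transcript Tcf3-211 (8.34%). Replicate 2 was assigned to Tcf3-205 (69.6%, 93.7 counts) and Tcf3-207 (30.4%, 49.3 counts), both at 0 in replicate 1. The estimates are loose at this depth: in replicate 2 the deposited interval of Tcf3-205, 1.10 to 6.28 TPM, overlaps that of Tcf3-209, 0 to 1.95 TPM. By posterior mean, Tcf3-205 held 36.7% and Tcf3-209 held 7.22% in replicate 2. The coding part of Tcf3-209 has 9 bases that Tcf3-205 lacks (chr10:80416781-80416789). They are printed in capitals between 15 flanking bases on each side, as the only coding bases that set Tcf3-209 apart from Tcf3-205. The other differences are in the UTRs.
Tcf3-209: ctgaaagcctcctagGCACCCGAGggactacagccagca

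The octamer factor and its coactivator differed in their ratios by TMM, and lay close together with the GC trend removed. Pou2f2 (chr7:25087344-25179726, minus strand), also called OCT2, had 3439 and 294 counts, or 124.9 and 77.2 CPM. Its log2 ratio was 0.57 (0.39 to 0.74) by TMM, which is not called, and -0.69 by total counts and -1.05 in TPM. Pou2af1 (chr9:51213708-51240080, plus strand), also called OCA-B, encodes the coactivator that joins the octamer factors on DNA. It had 11207 counts in replicate 1, the most of the 10 genes, and 110 in replicate 2, or 407.1 and 28.9 CPM. It was lower by 5.87-fold, a log2 ratio of -2.55 (-2.84 to -2.28), and by 32.0-fold in TPM. The ratio of Pou2f2 to Pou2af1 counts, which no library scaling alters, was 0.307 in replicate 1 and 2.67 in replicate 2. That is an 8.71-fold difference (95% counting interval 6.95 to 10.98). With the ratio of genes of like GC content subtracted, the genes stood at -1.82 and -1.71 on the log2 scale, a difference of -0.11, and with length included the difference was 1.10.

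Pou2af1 has 1 transcript in the tables, while Pou2f2 switched. Pou2f2-209, of 7047 bases, held 97.5% of Pou2f2 TPM in replicate 1 (3417 counts) and 40.1% in replicate 2 (201.5 counts). Pou2f2-201, of 2340 bases, held 0.39% (4.32 counts) and 57.0% (91.5 counts). Counted by reads and not per length, Pou2f2-209 led in both libraries, and in replicate 2 the deposited intervals of the 2 transcripts overlap, 0.56 to 4.73 TPM for Pou2f2-209 and 3.76 to 6.91 TPM for Pou2f2-201. Pou2f2-209 carries 5132 bases of 3′ UTR that Pou2f2-201 lacks (chr7:25087344-25092475). Pou2f2-201 has a coding end of 232 bases (chr7:25093130-25093361) and a stretch of 66 coding bases (chr7:25116155-25116220) that extends a shared exon at its 5′ side, and neither is present in Pou2f2-209. Both are shown because they change the protein that the leading transcript encodes; the first ends in its stop codon.
Pou2f2-201, coding end: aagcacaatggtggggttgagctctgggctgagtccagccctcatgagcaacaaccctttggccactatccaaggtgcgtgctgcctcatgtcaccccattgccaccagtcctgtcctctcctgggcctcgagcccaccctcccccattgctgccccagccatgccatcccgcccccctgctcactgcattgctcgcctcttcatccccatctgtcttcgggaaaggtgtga
Pou2f2-201, exon extension: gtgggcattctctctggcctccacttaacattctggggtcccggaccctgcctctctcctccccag

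Spib (chr7:44525993-44532071, minus strand) had 8799 counts in replicate 1 and 179 in replicate 2, or 319.6 and 47.0 CPM. Its log2 ratio was -1.50 (-1.72 to -1.29) by TMM, -2.76 by total counts and -3.83 in TPM, a 15.4-fold lower level per length. In M21 both of its transcripts begin within 500 bases of the same RefSeq start, though their lengths there differ from the deposited ones. Spib-201 held 88.9% and 100%, and Spib-202 held 11.1% (997.3 counts) and 0%, though by posterior mean Spib-202 still held 24.5% in replicate 2.

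Bcl6 and Bach2, which keep germinal centre and memory cells from becoming plasma cells, were the rarest of the 10 in replicate 2. Bcl6 (chr16:23965052-23988852, minus strand) had 1540 and 41 counts, or 55.9 and 10.8 CPM, with a log2 ratio of -1.11 (-1.60 to -0.67). This call was the narrowest among the regulators called lower, and it was not made under DESeq2 scaling, where the ratio was -0.99. Bcl6-201 held 91.8% and 100% of its TPM, and the rest of replicate 1 was the retained-intron transcript Bcl6-202.

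Bach2 (chr4:32238804-32586108, plus strand) showed the lowest ratio of the set. It had 5124 counts in replicate 1 and 22 in replicate 2, or 186.1 and 5.78 CPM. The log2 ratio was -3.75 (-4.42 to -3.15), 13.4-fold lower, and only 4.60% of tested genes had a lower one. The TPM values, 48.7 and 0.45, differ 108.2-fold, but the second is not firm. All 22 counts were assigned to Bach2-207, a transcript of 8493 bases, and the TPM of 0.45 lies outside the deposited interval for the gene, 0.82 to 5.01 TPM around a posterior mean of 2.67 TPM. In replicate 1 Bach2-207 held 53.1% of the TPM (4107 counts), Bach2-202 held 11.9%, and the 336-base Bach2-205, annotated as a processed transcript with no coding part, held 30.3% from 41.6 counts. Relative to each other, Bcl6 and Bach2 counts stood at 0.301 in replicate 1 and 1.86 in replicate 2, a 6.20-fold difference (3.59 to 10.96).

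Foxp1 and Mef2c, at nearly the same level in replicate 1, went opposite ways. Mef2c (chr13:83504034-83667080, plus strand) had 10968 and 251 counts, or 398.4 and 65.9 CPM, a log2 ratio of -1.33 (-1.52 to -1.15) that was -2.60 by total counts and -3.57 in TPM. Its leading transcript was Mef2c-202 in replicate 1 (78.9%, 8769 counts) and Mef2c-201 in replicate 2 (99.5%, 250.3 counts), with Mef2c-202 at 0 counts there. By posterior mean Mef2c-202 held 13.6% in replicate 2. Their lengths in the tables, 6427 and 6325 bases, are not those of the M21 models, so their structure is not compared.

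Foxp1 (chr6:98925338-99522721, minus strand) had 8401 and 1537 counts, or 305.2 and 403.8 CPM. The log2 ratio was 1.67 (1.59 to 1.75), 0.40 by total counts and 0.32 in TPM, so all scalings put it higher, though short of 1.5-fold under total counts and in TPM. The ratio of Foxp1 to Mef2c counts differed 7.99-fold between the libraries. Foxp1 has 32 transcripts in the tables. Foxp1-206, of 7029 bases, held 62.7% of Foxp1 TPM in replicate 1 (7562 counts) and 3.78% in replicate 2 (176.6 counts). Foxp1-230, of 2468 bases, was at 0 counts in replicate 1 and held 71.0% in replicate 2 (1123 counts). Unlike those of Tcf3 and Pou2f2, this switch was well separated: the deposited interval of Foxp1-230 was 0 to 0.61 TPM in replicate 1 and 67.8 to 77.7 TPM in replicate 2. That of Foxp1-206 was 53.0 to 57.4 TPM and 2.55 to 4.35 TPM.

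The 2 Foxp1 transcripts start at different promoters. RefSeq start sites lie on chromosome 6 at 99266515 and 99028298. Transcripts that begin within 500 bases of the former held 63.7% and 3.78% of Foxp1 TPM in replicates 1 and 2, and those at the latter held 1.02% and 71.4%. Transcripts at the third RefSeq start, 99520993, held 0% and 7.09%. The bases before the first 2 of these starts are printed, from the RefSeq promoter table on GRCm38.p6, minus strand, with every CG pair in capitals, because their composition is far apart.
Before 99266515 (chr6:99266516-99266765): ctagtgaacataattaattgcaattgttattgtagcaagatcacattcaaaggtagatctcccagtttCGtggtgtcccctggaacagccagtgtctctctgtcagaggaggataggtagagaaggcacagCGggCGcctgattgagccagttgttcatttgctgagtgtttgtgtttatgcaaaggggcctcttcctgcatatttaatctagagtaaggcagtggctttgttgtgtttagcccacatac
Before 99028298 (chr6:99028299-99028548): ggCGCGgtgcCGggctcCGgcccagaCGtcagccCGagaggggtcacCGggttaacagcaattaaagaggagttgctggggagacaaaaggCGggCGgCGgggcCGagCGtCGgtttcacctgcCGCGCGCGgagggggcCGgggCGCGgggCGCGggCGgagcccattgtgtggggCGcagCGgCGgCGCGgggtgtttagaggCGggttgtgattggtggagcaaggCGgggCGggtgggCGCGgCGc
The first has a GC content of 45.2% and 3 CG pairs, and 29.0% of the 32851 windows of 250 bases in that table have fewer. The second has a GC content of 74.0% and 34 CG pairs, and 96.5% have fewer. The median window has 6.

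Foxp1-206 encodes a longer N-terminal part. Its coding sequence is 2022 bases against 1731 for Foxp1-230, and its first 294 coding bases, spliced from chr6:99162839-99163018, chr6:99075854-99075949 and chr6:99016648-99016665, lie outside the reading frame of Foxp1-230. They are printed with the start codon in capitals, as coding sequence outside the reading frame of the leading transcript of replicate 2. The last 18 of these bases are present in that transcript, ahead of its reading frame. The long run of cag and caa codons encodes glutamines.
Foxp1-206, coding start: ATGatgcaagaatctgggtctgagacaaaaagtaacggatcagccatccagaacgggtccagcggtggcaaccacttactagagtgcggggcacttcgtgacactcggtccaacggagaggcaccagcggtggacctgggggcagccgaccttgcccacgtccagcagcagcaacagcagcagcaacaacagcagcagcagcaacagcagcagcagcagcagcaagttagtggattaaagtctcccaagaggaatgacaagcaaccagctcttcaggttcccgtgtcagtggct
At the other end, Foxp1-206 has 4128 bases of 3′ UTR (chr6:98925338-98929465) that Foxp1-230 lacks. Within the coding part, Foxp1-230 has 3 bases (chr6:99010055-99010057) that Foxp1-206 lacks.

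**Figure D2:**
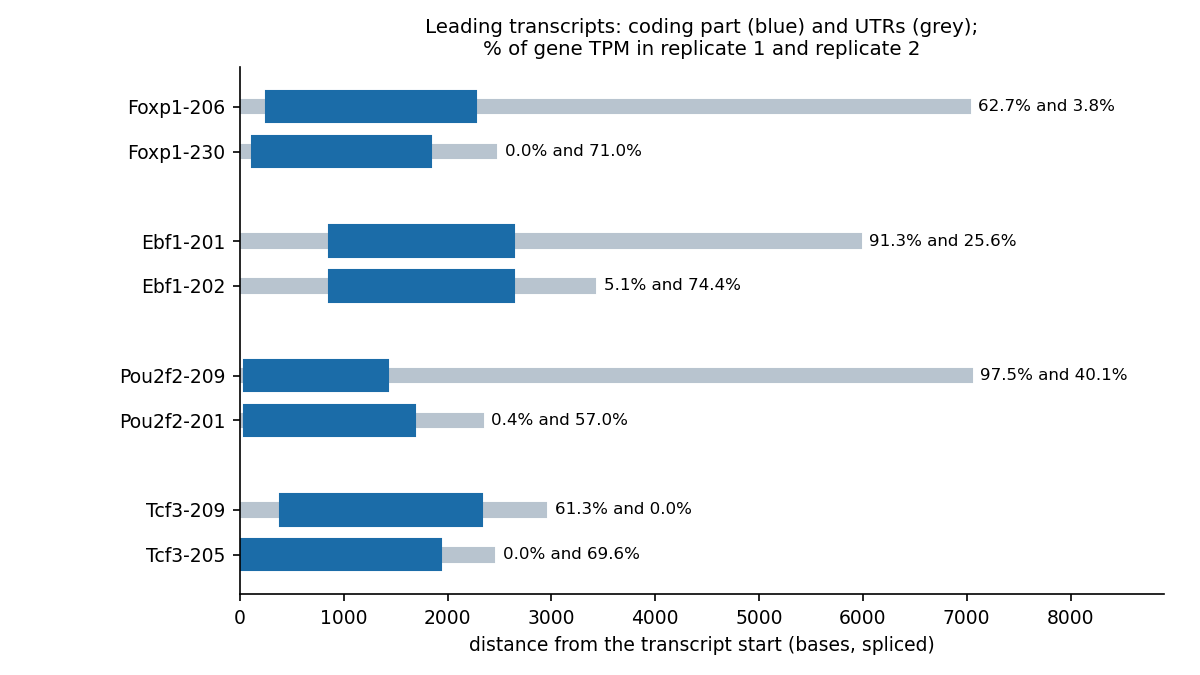
Spliced maps of the leading transcripts of replicate 1 (upper of each pair) and replicate 2 (lower) for Foxp1, Ebf1, Pou2f2 and Tcf3, in bases from the transcript start, with the coding part in blue and UTRs in grey. The transcript that led in replicate 2 is the shorter of each pair, as for Foxp1-206 of 7029 bases and Foxp1-230 of 2468 bases, and most of the difference for Foxp1, Ebf1 and Pou2f2 is 3′ UTR.

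Across the set, 9 regulators have 2 or more transcripts and a mean of at least 10 TPM. In 4 of them (Pax5, Spib, Bach2 and Bcl6) the same transcript led in both libraries, and in 5 (Foxp1, Ebf1, Pou2f2, Tcf3 and Mef2c) another did. Among the 5402 genes of that kind, the leading transcript differed in 44%. In all 5 regulators the transcript leading in replicate 2 was the shorter, and among the 2378 genes whose leading transcript differed it was the shorter in 68.6%. The distance between the transcript shares of the libraries, from 0 for equal shares to 100 for none in common, was 100 for Tcf3, 84.6 for Foxp1, 80.5 for Mef2c, 69.3 for Ebf1 and 59.5 for Pou2f2. It was 46.9 for Bach2, 44.0 for Pax5, 11.1 for Spib and 8.22 for Bcl6. The median was 59.5 over these 9 and 46.0 over the 5402 genes. Counts of the genes themselves are hardly touched by this, since the deposited posterior SD of the gene count was 0 for all but Ebf1 (9.38 and 1.53 counts) and Foxp1 (0.79 and 0 counts), but TPM is, as a shorter assumed transcript gives a higher level for the same reads. The mean transcript length was 4953 and 2403 bases for Foxp1, 5757 and 4077 for Ebf1, and 6921 and 4177 for Pou2f2.

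**Figure D3:**
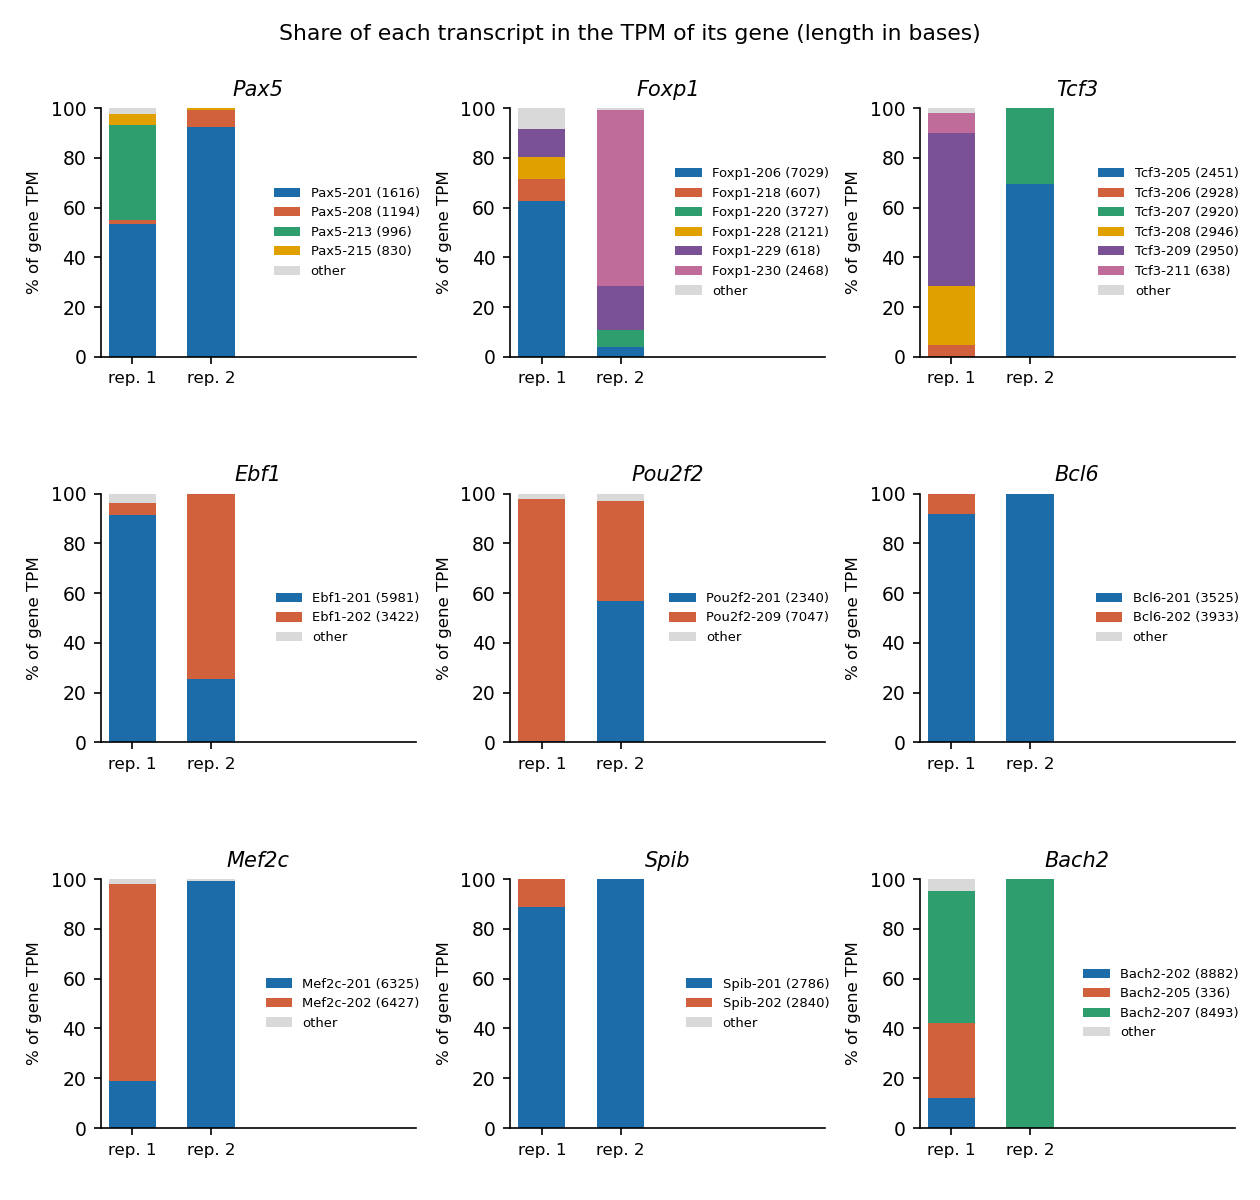
Share of each transcript in the TPM of its gene, in percent, for the 9 regulators with several transcripts, in replicate 1 and replicate 2 (transcripts under 3% in both are pooled as other; lengths in bases). Foxp1, Ebf1, Tcf3, Pou2f2 and Mef2c change their leading transcript, while Spib-201 (88.9% and 100%) and Bcl6-201 (91.8% and 100%) lead throughout.

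Ratios between 2 members need no library scaling, though they still carry any trend with base composition. Of the 45 pairs, 37 had a count ratio that differed by more than 1.5-fold between the libraries with its whole 95% interval, and 20 pairs changed their order in TPM. By the ratio alone 39 of 45 differed by more than 1.5-fold, close to the 84.9% of all pairs of tested genes. With the GC trend removed 34 pairs differed by the interval rule, and 11 pairs turned their direction. Pax5 against Bach2 differed most, from 0.238 to 30.9, which is 129.8-fold (84.6 to 209.5). Pax5 against Pou2af1 went from 0.109 to 6.18, a 56.8-fold difference (45.95 to 70.7), and Pax5 against Ebf1, its upstream activator, from 0.328 to 1.41, a 4.31-fold difference (3.76 to 4.94). With the GC trend removed, the log2 difference was 4.84 for Pax5 against Bach2 and 3.50 for Pax5 against Pou2af1, but -0.46 for Pax5 against Ebf1, which turned its direction (-0.99 with length included). A few pairs had nearly the same count ratio in both libraries. Foxp1 against Tcf3 was 10.2 and 10.7, a 1.06-fold difference whose interval (0.877 to 1.28) includes no difference. In TPM, however, that pair was 5.44 and 11.7, and with the GC trend removed its log2 difference was 2.42. Mef2c against Spib differed 1.12-fold (0.923 to 1.37) and Bcl6 against Mef2c 1.16-fold (0.811 to 1.63), also including no difference. Tcf3 against Ebf1 differed 1.34-fold (1.08 to 1.64). With the GC trend removed, the log2 differences were 3.27 for Mef2c against Spib and -3.37 for Tcf3 against Ebf1, while Bcl6 against Mef2c, at -0.68, remained short of the 1.5-fold rule by its interval.

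**Figure D4:**
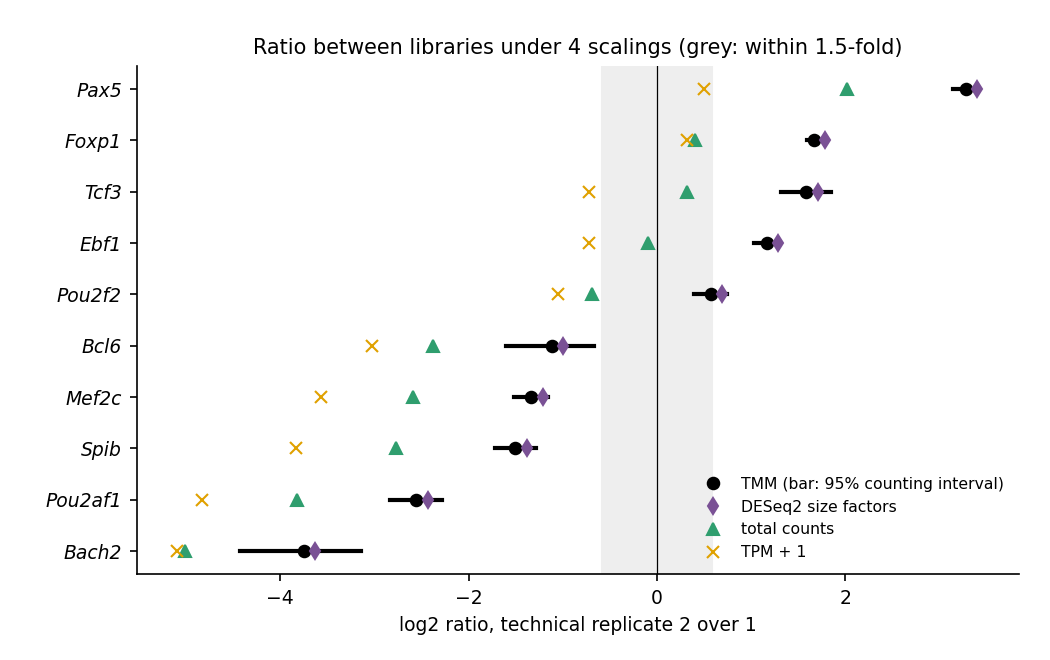
Log2 ratio of replicate 2 over replicate 1 for each regulator under TMM scaling with its 95% counting interval, and under DESeq2 scaling, total counts and TPM with a pseudocount of 1. Pax5 lies above 0 under all 4 and Spib, Pou2af1, Bach2, Bcl6 and Mef2c below 0, while Ebf1, Pou2f2 and Tcf3 change sign with the scaling.

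The ratios of all genes followed base composition. Over the tested genes with a GC value, the Spearman rho between the log2 ratio and the GC content of the coding transcripts was 0.511, and over the 10 regulators it was 0.394. Each regulator was therefore also set against the median ratio of the 500 tested genes nearest to it in GC content. Ebf1, at 46.2% GC, stood 2.24 above genes of like composition, Pax5, at 57.2%, stood 1.79 above, and Foxp1, at 53.7%, stood 1.29 above. Bach2 stood 3.05 below and Pou2af1, at 47.7%, stood 1.71 below. Spib is as rich in GC as Pax5 (59.1%) and stood 3.52 below its neighbours. Mef2c, at 45.6%, lay 0.25 below and Bcl6, at 51.3%, lay 0.93 below. Tcf3 (61.4%), called higher by TMM, stood 1.13 below genes of like GC content, and Pou2f2 (60.0%), not called by TMM, stood 1.82 below. Against genes near in both GC content and length, however, Tcf3 stood at 0.17 and Pou2f2 at -0.63, and neither was called. That length is the mean over a gene's coding transcripts in M21, not the mean transcript length estimated by the authors. The range among the 10 was 5.76 with the GC trend removed and 6.39 with length included, against 7.02 before. The part of base composition in any single ratio was not tested.

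**Figure D5:**
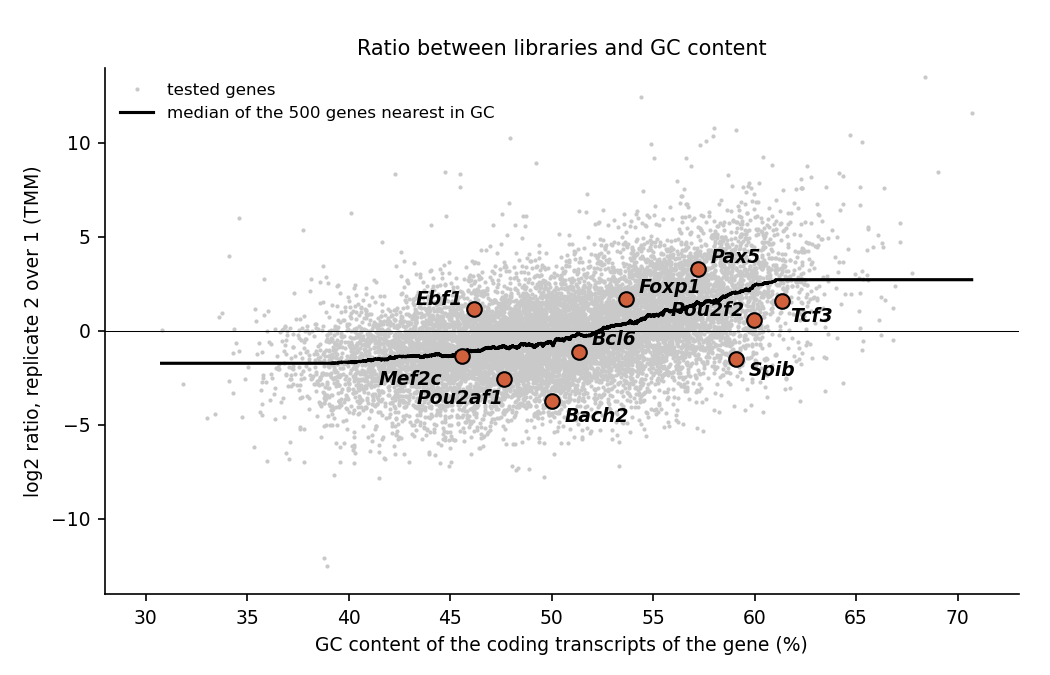
Log2 ratio of replicate 2 over replicate 1 (TMM) against the GC content of each gene's coding transcripts, in percent, for the tested genes (grey), the median of the 500 genes nearest in GC content (line) and the 10 regulators (orange). Pax5, Foxp1 and Ebf1 lie above the line, and Spib (3.52 below), Bach2 (3.05 below), Pou2f2 and Pou2af1 lie farthest under it.

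The relatives, cofactors and targets of these regulators were listed by role. Of 59 such genes 53 were tested, and 15 were called higher, 20 lower and 18 not called. Among all 12467 tested genes 28% were called higher and 32.6% lower. The median log2 ratio was -0.62 for the list and -0.27 for the 12467. Of the 53, 6 were higher and 19 lower by the stricter rule, beside 11.8% and 30.5% of all tested genes. These counts are given as a description and not as a result about the list. Among the E protein partners, Id3 and Id1, inhibitors that bind E proteins and keep them off DNA, were higher by TMM and in TPM. Id3 was at 12.5 and 22.8 TPM (log2 ratio 3.53, 3.22 to 3.83) and Id1 at 8.09 and 11.9 TPM (3.07). The E protein gene Tcf12 was at 59.2 and 0.93 TPM (-3.35, -4.00 to -2.78).

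Among the octamer, ETS and PU.1 relatives, Spi1, which encodes PU.1 and stands close to Spib, had a ratio of 1.68 (1.39 to 1.96), but its TPM was lower, 60.7 and 14.8. Spic, a factor of red pulp macrophages, had 1.31 with 121.4 and 56.3 TPM. Pou2f1 (-3.04), Ets1 (-2.61, 283.4 and 12.3 TPM) and Elf1 (-1.79) were lower on both scales. Of 8 EBF, PAX and FOX relatives only 3 were tested, and Foxo1, which acts with EBF1 in early B cells, was lower (-1.26, 41.9 and 3.27 TPM). Mafg, a small MAF partner of BACH2, had a ratio of 1.79 with 17.3 and 8.72 TPM, and Mef2a was lower (-1.79, 42.3 and 2.05 TPM). Of the BCL6 partners, Hdac7 (3.22, 39.0 and 83.9 TPM) and Hdac5 (2.26, 13.1 and 21.6 TPM) were higher and the corepressor Ncor1 was lower (-1.95, 155.8 and 3.99 TPM).

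By TMM, 1 of the 13 other lymphoid regulators tested was called higher, 3 were called lower and 9 were not called. The same rule called 60.6% of all tested genes. That count of 9 rests on the scaling, since with total counts all of them except Runx3 were called lower. Klf2, which sets B cell and T cell trafficking, was at 67.6 and 534.8 TPM, a log2 ratio of 5.44 (5.37 to 5.52) and the only one called higher. Ikzf3 (-2.95, 167.2 and 6.50 TPM) and Ikzf1 (-2.43, 173.0 and 5.79 TPM), the genes of Aiolos and Ikaros, were lower. Of the 14 target genes, 5 were higher by TMM, but 1 of those (Cd79a) by the stricter rule, and 8 were lower. Cd79a, a PAX5 and EBF1 target that encodes a signalling chain of the B cell receptor, was at 495.5 and 504.3 TPM, with a log2 ratio of 2.50 (2.45 to 2.55) by TMM. Cd72 (2.48, 299.0 and 196.2 TPM) and Cd79b (1.94, 737.7 and 499.4 TPM) were higher by TMM but lower in TPM. The chemokine receptor gene Cxcr5 (-3.60, 134.7 and 2.06 TPM), the class II transactivator gene Ciita (-1.75, 42.6 and 2.36 TPM) and Cd83 (-1.43, 146.1 and 9.92 TPM) were lower on both scales. Known targets of the same factors fell on both sides, as the factors themselves did and as all tested genes did (28% higher and 32.6% lower by TMM).

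Several of the 10 genes are also used by other spleen cells: Foxp1 and Bach2 by T cells, Spib by plasmacytoid dendritic cells, and Mef2c by myeloid cells. For the 8 T cell markers the summed TPM was 580.0 in replicate 1 and 161.1 in replicate 2, and all 8 reached 1 TPM in both. By TMM 2 of the 8 were called higher, 3 lower and 3 were not called. These sums and those that follow are in TPM, where the median log2 ratio over all tested genes was -2.10 (pseudocount of 1). The 6 plasmacytoid dendritic cell markers summed to 306.7 and 653.1 TPM, with 5 at 1 TPM in each library. That higher sum comes from Bst2 (62.9 and 525.7 TPM) and Il3ra (0.35 and 85.1 TPM), while the other 4 were lower in TPM: Siglech (40.2 and 5.63), Tcf4 (47.7 and 8.87), Irf8 (138.7 and 27.8) and Ccr9 (16.8 and 0). By TMM 2 of these 6 were called higher, 1 lower (Ccr9) and 3 were not called. The 8 macrophage markers summed to 984.2 and 819.4 TPM, all at 1 TPM in both. Behind this sum C1qa (90.1 and 569.2 TPM) and C1qc (86.3 and 106.5 TPM) were higher in TPM. Adgre1 (61.6 and 2.85 TPM), Csf1r (120.9 and 8.65 TPM), Cd68 (57.6 and 1.40 TPM), Vcam1, Spic and C1qb were lower in TPM. By TMM C1qa, C1qc and Spic were called higher and Adgre1, Csf1r and Cd68 lower, while Vcam1 and C1qb were not called. The 6 plasma cell markers summed to 1665 and 398.2 TPM, with 6 and 5 at 1 TPM. Most of that sum in replicate 1 was Jchain (1354.51 and 155.37 TPM), which was lower in TPM, as were Xbp1, Sdc1 and Prdm1. Mzb1 (112.55 and 215.53 TPM) and Tnfrsf17 (2.34 and 5.76 TPM) were higher in TPM. By TMM 3 of the 6 were called higher (Mzb1, Tnfrsf17 and Sdc1), 0 were called lower and 3 were not called. The part of these cells in the levels of the 10 regulators was not tested.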

How the data were processed

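For each library there is a table of genes and a table of transcripts, as deposited. Per the deposited text, reads were aligned to the transcriptome of mm10 with GENCODE M4. The aligner and quantifier are not given in the sources used here. The authors' model divided shared reads into the expected count of each gene or transcript, per the file headers, so transcript values are estimates. TPM as deposited adds up to 1000000 per library, and the deposited percent value is a transcript's share of its gene's TPM. Other deposited measures used were lengths and posterior means with their intervals, per the file headers.

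Expected counts were rounded. A gene was tested if its TPM averaged 1 or more and it had 50 or more counts over both libraries. Scaling used edgeR 4.0.16 (TMM), with DESeq2 1.42.0 size factors and total counts as alternatives (R 4.3.3). Ratios carry exact Clopper-Pearson 95% intervals conditional on the gene's total count. The calculation was tested on simulated data. Rows without an Ensembl identifier stayed out and held 1.09e-05% and 0.00021% of counts. Symbols, coordinates, GC content and structure came from GENCODE M21 (GRCm38), which matched 42462 of 43346 genes and 101510 of 103639 transcripts. GC content, and the length used with it for the trend, were means over a gene's coding transcripts. Structures were compared only where a transcript had the same length in the tables and in M21.

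The 10 members and all lists were chosen with earlier results of these data known. All members are named, and from the list of partners and targets at most 3 higher and 3 lower per role, by size, among called genes whose mean level was 10 TPM or more. Calculations used scipy 1.17.1, pandas 2.3.3 and numpy 2.4.6 in Python 3.11.15, and figures matplotlib 3.10.9.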

Additional observations from a re-analysis of the deposited data

How the results depend on the processing

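Of the 10 regulators, the 4 called higher became 1 under total counts and 0 in TPM with a pseudocount of 1, and the 5 called lower became 8 in that TPM and 3 with the GC and length trends removed; the cause was not tested. Ebf1 changed direction under total counts (-0.10). In TPM with a pseudocount of 1, Ebf1 (-0.72), Tcf3 (-0.72) and Pou2f2 (-1.05) did so, as they did with a pseudocount of 0.1 (-0.74, -0.77 and -1.10). Removing the GC trend turned Tcf3 (-1.13) and Pou2f2 (-1.82). With length included Tcf3 kept its direction (0.17) and Pou2f2 was at -0.63, and neither was called. The 99% interval, the 2-fold rule and DESeq2 scaling each left 9 of 10 calls as they were. The share of tested genes called lay between 48.09% under the 2-fold rule and 89.2% in TPM, where the call uses no interval. Without the filter it was 42.53% of all genes with any count. The leading transcript was the same in 4 regulators, in 5 when ranked by expected count, in 4 among coding transcripts, and in 3 by posterior mean, an alternative chosen after seeing the data. Of the 45 pairs 37 differed, 34 with the GC trend removed and 37 with GC and length removed, also chosen after seeing the data. Leaving out a library gives no ratio, as there are 2. No paired analysis was possible because there is 1 library on each side. Depth limits replicate 2 most, where Bach2 rests on 22 counts and Bcl6 on 41. Intervals cover counting error only, and they take every count as independent, which PCR copies of a molecule are not.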
